A study of Mus musculus with 12 samples.

Results

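The genes described here encode enzymes and remodelling proteins that write, remove or act on the marks of chromatin and DNA. They were chosen by symbol among the protein-coding genes of the GENCODE M21 annotation: the DNA methyltransferases (Dnmt), the TET dioxygenases, the lysine demethylases (Kdm, with 1 Kdm gene left out by the rule), the lysine methyltransferases (Kmt, Setd, Ezh), the histone deacetylases (Hdac), the sirtuins, the Smarc genes and the Arid genes. The rule found 86 genes among the 55401 gene identifiers of the count tables, and 80 of them had enough counts to be tested. The other 6 fell below the filter on low counts, and they are Dnmt3c, Dnmt3l, Kdm5d, Hdac11, Smarca1 and Arid3c. The members were sorted into 15 roles, whose names do not mean that every member has that enzyme activity. RNA was sequenced from 12 bulk libraries of mouse T cells with the OT-I genotype, a transgenic receptor by which CD8 T cells recognise a peptide of ovalbumin, so that all groups carry the same receptor. The 3 naive libraries were made from lymph node cells of tumour-free OT-I animals. The 3 effector libraries came from OT-I cells kept in culture with antigen for 5 days. The other 6 libraries came from CD44+ OT-I cells sorted out of B78ChOVA melanomas (a melanoma line that carries ovalbumin) in C57Bl6/J mice, 3 of them 4 days after transfer and 3 of them 14 days after transfer, and the labels call both groups exhausted. The age and sex of the mice, and whether libraries of a group came from separate animals or cultures, are not in the labels, so p-values measure only the spread between these libraries.

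DNA methyltransferases add methyl groups to cytosine, with DNMT1 copying the pattern at replication and DNMT3 enzymes setting it anew, while TET dioxygenases oxidise the mark and lead to its loss. Histone methyltransferases and demethylases set marks on single lysines of histone H3 and H4, among which H3K4 methylation accompanies active promoters and enhancers and H3K27 trimethylation, written by the Polycomb repressive complex PRC2, accompanies silenced genes. Deacetylases remove acetyl groups, and remodelling complexes such as BAF move nucleosomes by using ATP. In CD8 T cells, DNMT3A, TET2 and EZH2 are known as regulators of the choice between effector, memory and exhausted states.

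Levels are given as CPM, the count scaled to a common total of gene counts with TMM factors. Gene counts per library ran from 11937053 to 17094006, and Pearson's r of log2 CPM lay between 0.97 and 0.981 within groups and between 0.777 and 0.965 across groups. Summed levels of 7 CD8 T cell markers (Cd8a, Cd8b1, Cd3d, Cd3e, Cd3g, Trac and Cd2) ran from 3795 to 4243 CPM in naive, 4624 to 5100 CPM in effector, 2619 to 3115 CPM in day 4 and 3571 to 3704 CPM in day 14 libraries, with none of the 7 at 0. Of the 7, 4 were higher in effector than in naive cells and 4 were lower at day 4 than in naive cells. At day 14, 3 were higher than at day 4 and 3 were lower than in effector cells. Among all genes tested, 14.6% were higher in effector than in naive cells. At day 4 against naive 33.4% were higher and 28.8% lower. At day 14, 7.17% were higher than at day 4, and against effector cells 32.6% were higher and 28.4% lower. The same shares apply to the marker counts that follow. Summed levels of 10 melanoma markers ran from 35.5 to 44.9 CPM in the naive and effector libraries, from 904 to 1345 CPM at day 4 and from 525 to 2079 CPM at day 14, with day 14 replicate 1 highest, and Dct (1214 CPM in that library) was the most abundant of them. Summed levels of 18 macrophage and monocyte markers ran from 9.21 to 40.5 CPM in the naive and effector libraries and from 70.5 to 153 CPM in the tumour libraries. Summed levels of 8 dendritic cell and MHC class II markers ran from 9.99 to 36.2 CPM in the naive and effector libraries and from 144 to 225 CPM in the tumour libraries, and 6 of the 8 were higher at day 4 than in naive cells. The 5 CD4 T cell and Treg markers were Cd4, Foxp3, Zbtb7b, Il2ra and Ikzf2. Their summed levels ran from 45.4 to 75.3 CPM in naive and from 252 to 496 CPM in effector libraries. They ran from 1006 to 1078 CPM at day 4 and from 480 to 559 CPM at day 14. Of the 5, 4 were higher in effector than in naive cells, and 4 were higher at day 4 than in naive cells. The sums do not show which cells made these transcripts. For 5 B cell markers the sums ran from 8.34 to 21.3 CPM in the naive and effector libraries. They ran from 1.53 to 6.73 CPM in the tumour libraries. Of the 4 tested, 3 were lower at day 4 than in naive cells. For 8 fibroblast markers the sums ran from 0.602 to 3.74 CPM in the naive and effector libraries. They were 2.86, 25.5 and 3.94 CPM in day 4 replicates 1, 2 and 3, and ran from 9.38 to 19.4 CPM at day 14. Of the 6 tested, 3 were higher and 1 lower at day 4 than in naive cells. All 6 were higher at day 14 than in effector cells. For 6 endothelial markers (Pecam1, Cdh5, Kdr, Tek, Cldn5 and Vwf) the sums ran from 177 to 198 CPM in the naive and effector libraries. They ran from 43.9 to 87.9 CPM in the tumour libraries. Only 2 of these 6 were tested, and they went opposite ways. At day 4 against naive 1 was higher and 1 lower, and at day 14 against effector the split was the same. Summed levels of 11 cycling cell markers ran from 295 to 468 CPM in naive libraries. They were 261, 1190 and 328 CPM in effector replicates 1, 2 and 3, and ran from 4560 to 4672 CPM at day 4 and from 4117 to 5290 CPM at day 14. All 11 were higher at day 4 than in naive cells and at day 14 than in effector cells, and none differed in the test between day 14 and day 4. These values move with the tumour groups, and so with every difference between tumour and other libraries given here. Their part in those differences was not tested. In bulk RNA, fewer cells of a type and less RNA per cell cannot be told apart. The Y-linked demethylase Kdm5d was at 0 CPM in 10 libraries, with 0.0739 and 0.0605 CPM in naive replicate 1 and day 14 replicate 3. Summed levels of 4 sex-linked transcripts (Xist and the Y-linked Ddx3y, Uty and Eif2s3y) ran from 2874 to 6055 CPM over all libraries. Of these 4, 3 had no counts in the naive, day 4 and day 14 groups, and 1 had none in the effector group.

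Expression of 70 of the 80 tested members (87.5%) differed among the 4 groups, where 74.8% of the 16426 genes tested did (edgeR, adjusted p under 0.05). The highest group mean belonged to the effector cells for 40 members, to the day 4 cells for 18, to the naive cells for 13 and to the day 14 cells for 9. This was not counted over all genes, so it cannot be read as a trait of the set. It also includes members called in no pairwise comparison, such as Sirt1, Arid1b and Smarcd3. In 16 members (20%) every tumour library lay above every naive and effector library, against 23.9% of all genes tested. The 16 are Dnmt1, Dnmt3a, Tet2, Ezh2, Kdm6b, Kdm2b, Kmt5a, Hdac1, Hdac3, Hdac6, Smarca4, Smarca5, Smarcb1, Smarcc1, Smarcd1 and Arid5b. In 31 members (38.8%) every tumour library lay below every other library, against 19.5% of all genes tested. The 31 include 6 H3K4 methyltransferases (Kmt2a, Kmt2b, Kmt2c, Kmt2d, Setd1b and Setd7), Ezh1, Tet3, Smarca2, Arid1a, Arid3b and the sirtuins Sirt3, Sirt5 and Sirt7.

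**Figure D1:**
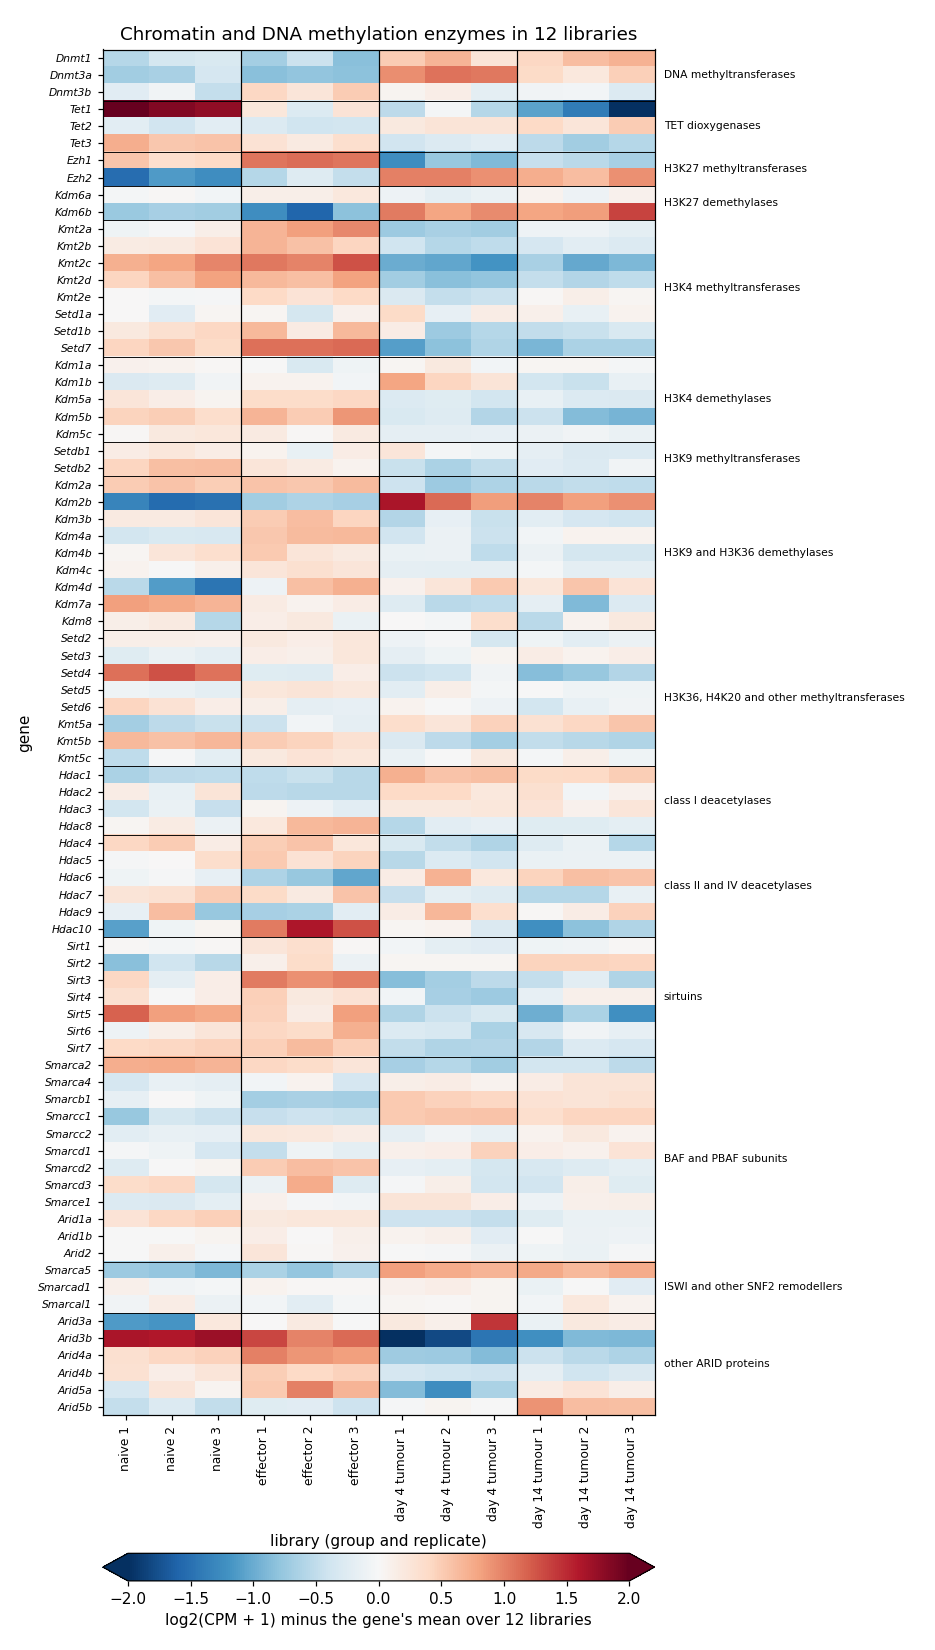
Heat map of the 80 tested members (rows, grouped by role) in the 12 libraries (columns, 3 per group); colour is log2(CPM + 1) minus the gene's mean over the 12 libraries, from -2 to 2. Ezh2, Kdm2b, Kdm6b and Smarca5 are red in all 6 tumour libraries, and Ezh1, Kmt2c, Setd7 and Arid3b are blue in all 6.

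Culture with antigen was compared with the naive state first. Levels of 34 of 80 members (42.5%) differed between effector and naive cells, against 24.9% of all genes tested. Of these, 24 were higher in effector cells (30% of members, 14.6% of all genes) and 10 were lower (12.5% of members, 10.4% of all genes). The median log2 fold change was 0.13 over members and 0.01 over all genes. Highest were Kdm4d, Hdac10, Kdm4a, Sirt3, Ezh2, Kmt2a, Kdm2b and Arid5a, with log2 fold changes from 0.75 to 2.05. Lowest were Tet1 and Setd4, at -1.83 and -1.38. By role, 4 of 8 H3K4 methyltransferases rose (3 with total counts as scaling) and none fell, and both H3K27 methyltransferases rose. The direction split depends on the scaling. Total gene counts shifted the log2 fold changes of all genes by a median of -0.14, and 16 members were called higher and 17 lower. In a refit of only the genes with at least 10 CPM in 3 libraries, which kept 75 members, the split was 19 higher and 16 lower. With total counts, Kmt2b, Kmt5a, Kmt5c, Kdm3b, Kdm5a, Setd3, Setd5 and Hdac8 were no longer called higher, and Dnmt1, Dnmt3a, Kdm1a, Kdm6b, Kmt5b, Setd6 and Arid1a were called lower. Without effector replicate 2, the library with the high cycling sum, 21 were higher and 9 lower.

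Cells recovered from tumours 4 days after transfer were then set against naive cells. In this comparison 56 of 80 members (70%) differed, against 62.2% of all genes, with 20 higher (25%, against 33.4% of all genes) and 36 lower (45%, against 28.8%). The median log2 fold change was -0.17 over members and 0.03 over all genes. Among members whose groups did not overlap, Kdm2b, Ezh2, Kdm4d, Kdm6b, Dnmt3a, Smarca5, Hdac1 and Smarcc1 rose the most, by 1.05 to 2.74 on the log2 scale. Arid3b, Tet1, Kmt2c, Setd4, Sirt5, Kmt2d, Ezh1 and Smarca2 had the lowest log2 fold changes, from -3.51 to -1.36. Of the 8 H3K4 methyltransferases 7 fell and none rose, and 5 of 7 sirtuins fell. Among BAF and PBAF subunits 5 of 12 rose and 2 fell. With total counts as scaling, Smarcd1 was no longer called higher, and Kdm6a, Setd6 and Hdac8 were called lower. Leaving out any 1 of the 12 libraries gave between 51 and 57 called members.

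Fewer members, and fewer of all genes, differed between the tumour groups. Between day 14 and day 4, 15 of 80 members (18.8%) differed, against 12.1% of all genes, with 11 higher at day 14 (13.8%, against 7.17%) and 4 lower (5%, against 4.91%). Arid5a, Arid3b, Arid5b, Kmt2a, Kmt2e, Ezh1, Sirt2, Setdb2, Kdm4a, Arid1a and Smarcc2 rose. Tet1, Kdm1b, Dnmt3a and Tet3 fell. Of 6 tested ARID proteins outside BAF 3 rose, and 2 of 3 TET genes fell. The count was 9 without day 4 replicate 1, 9 without day 4 replicate 2, 9 without day 4 replicate 3 and 8 without day 14 replicate 2. With total gene counts as scaling 6 members were called higher and 5 lower, and Ezh1, Sirt2, Setdb2, Kdm4a and Smarcc2 lost their call. The split was 8 and 6 without the low-count filter and 6 and 5 with only the day 4 and day 14 libraries in the fit.

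OT-I cells sorted from tumours at day 14 were also set against cells activated in culture. Levels of 61 of 80 members (76.2%) differed, against 61.0% of all genes, with 17 higher at day 14 (21.2%, against 32.6%) and 44 lower (55%, against 28.4%). The median log2 fold change was -0.34 over members and 0.06 over all genes. Kdm6b, Kdm2b, Hdac6, Smarca5, Dnmt1, Ezh2, Dnmt3a and Arid5b rose the most, by 1.02 to 2.23 on the log2 scale. Hdac10, Arid3b, Kmt2c, Setd7, Tet1, Sirt5, Ezh1 and Sirt3 had the lowest log2 fold changes, from -2.45 to -1.52. Of the 8 H3K4 methyltransferases 7 fell and none rose, as in the comparison of day 4 with naive cells, with which this one shares no library. Each of these 2 comparisons shares a group with the other comparisons. With total counts or DESeq2 size factors, Setdb1, Kdm1b, Kdm5c and Arid2 were no longer called lower and Hdac3 was called higher. Without day 14 replicate 1, the library with the most melanoma transcript, 17 members were higher and 39 lower.

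**Figure D2:**
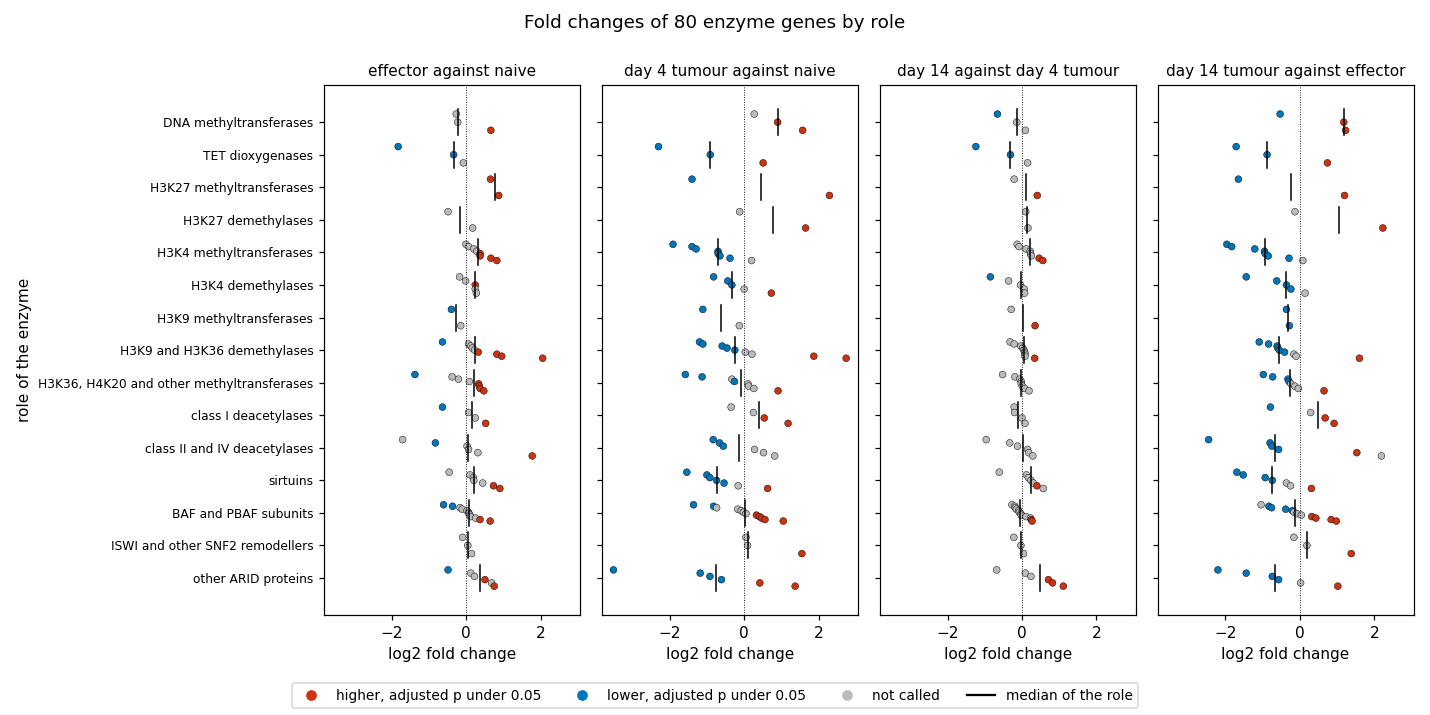
Log2 fold change (x axis) of each of the 80 tested members in 4 comparisons, by role (y axis); red and blue points passed the test upwards and downwards, grey points did not, and the black bar is the role's median. The H3K4 methyltransferases have medians of 0.32, -0.70, 0.22 and -0.94 from left to right.

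Among DNA methyltransferases, the maintenance enzyme Dnmt1 stood at 195, 228 and 234 CPM in naive replicates 1 to 3, at 181, 215 and 162 CPM in effector replicates, at 413, 464 and 348 CPM at day 4 and at 388, 444 and 473 CPM at day 14. Every tumour library lay above every naive and effector library. The log2 fold change was 0.90 ± 0.12 (SE) at day 4 against naive (adjusted p = 1.03e-05) and 1.23 ± 0.12 at day 14 against effector (adjusted p = 3.97e-07). The de novo enzyme Dnmt3a stood at 146, 150 and 188 CPM in naive cells, at 132, 136 and 133 CPM in effector cells, at 449, 501 and 491 CPM at day 4 and at 307, 274 and 331 CPM at day 14. Its 4-day libraries were the highest of all and did not overlap the 14-day ones. Dnmt3a rose by 1.57 ± 0.10 on the log2 scale at day 4 against naive (adjusted p = 1.70e-09) and fell by 0.66 from day 4 to day 14 (SE 0.10, adjusted p = 0.000336). At day 14 it remained above effector cells, by 1.18 ± 0.10 (adjusted p = 4.88e-08). The other de novo enzyme, Dnmt3b, was low and peaked in effector cells, at 38.8, 34.6 and 41.6 CPM. It ran from 20.6 to 27.6 CPM in naive cells and from 23.9 to 31.8 CPM in the tumour libraries. Dnmt3b rose by 0.66 ± 0.14 in effector cells against naive cells (adjusted p = 0.00312). The germline enzyme Dnmt3c reached 1.03 CPM in effector replicate 2 and at most 0.216 CPM elsewhere, and the catalytically inactive Dnmt3l had counts in 1 library.

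TET genes went different ways. Tet1 stood at 104, 91.7 and 87.1 CPM in naive cells, at 29.3, 20.3 and 30 CPM in effector cells, at 16.9, 24.1 and 16.4 CPM at day 4 and at 11.3, 8.76 and 4.3 CPM at day 14. Naive libraries lay far above all others, and the 14-day libraries lay below all others. Its group means span 11.6-fold, and it fell by 1.83 in effector cells (SE 0.27, adjusted p = 0.000459), by 2.30 at day 4 (SE 0.28, adjusted p = 1.56e-05) and by a further 1.24 from day 4 to day 14 (SE 0.29, adjusted p = 0.0141). Without day 4 replicate 2 the last change was -1.05 and did not pass the test. Tet2, whose loss is known to favour clonal expansion of T cells, stood at 198, 176 and 197 CPM in naive cells, at 189, 174 and 177 CPM in effector cells, at 263, 273 and 275 CPM at day 4 and at 303, 272 and 326 CPM at day 14. It rose by 0.51 ± 0.08 at day 4 against naive (adjusted p = 7.36e-05). Tet3 ran in the other direction, from 240 to 275 CPM in naive cells and 188 to 210 CPM in effector cells down to 126 to 142 CPM at day 4 and 102 to 115 CPM at day 14, with no overlap between any pair of groups. Tet3, like Tet1, fell in all 4 comparisons, but the fall of 0.31 from day 4 to day 14 was not called without day 4 replicate 2 or 3 or day 14 replicate 2 (-0.31, -0.28 and -0.28). Within libraries, the log2 ratio of Tet2 to Tet3 in CPM per kb of exon was -0.43 ± 0.08 (SD, n = 3) in naive cells, -0.17 ± 0.08 in effector cells, 0.99 ± 0.06 at day 4 and 1.44 ± 0.09 at day 14.

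Of 15 tested partners of DNA methylation and its removal, 5 were higher and 4 lower at day 4 than in naive cells, with a median of 0.14. Among all genes tested 33.4% were higher and 28.8% lower here, and the counts of this list lie near those shares. The same shares apply to the later partner counts at day 4. Gadd45b, which is linked to active demethylation and to stress signalling, rose by 5.50 (adjusted p = 2.17e-09), from 0.887, 1.99 and 2.37 CPM to 84.3, 78.5 and 74.2 CPM. Uhrf1, the cofactor that brings DNMT1 to replicating DNA, rose by 3.31 (adjusted p = 0.00543). Tdg, the glycosylase that removes oxidised methylcytosine, rose by 1.48 (adjusted p = 8.21e-09).

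**Figure D3:**
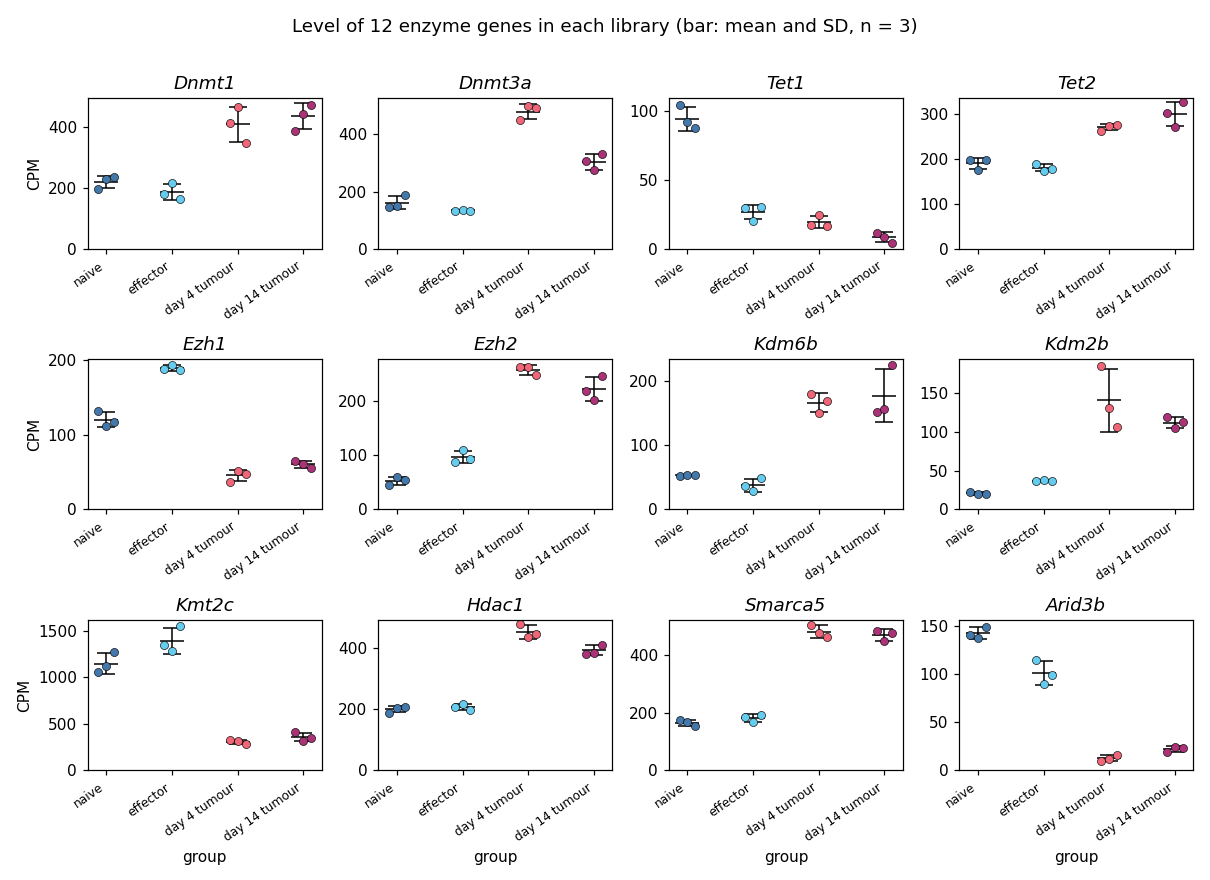
CPM (y axis, from 0) of 12 members in each library (points), by group (x axis); horizontal bars are means and whiskers are SD, n = 3. Dnmt1, Dnmt3a, Tet2, Ezh2, Kdm6b, Kdm2b, Hdac1 and Smarca5 have all 6 tumour libraries above the other libraries, and Ezh1, Kmt2c and Arid3b have them below.

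The catalytic subunits of PRC2, Ezh1 (chromosome 11, 101191115 to 101226463, minus strand, GRCm38) and Ezh2 (chromosome 6, 47530139 to 47595341, minus strand), are shown with the sequences before their start sites because they moved in opposite directions in the tumour libraries. The RefSeq promoter table (build GRCm38.p6) held windows for 70 of the 86 members, 93 windows in all, each with 250 bases before and 50 bases after a start site. The stretches are the 250 bases before the start, chr11:101226464-101226713 and chr6:47595031-47595280, both on the minus strand, and capitals mark the hypoxia-type letters ACGTG or GCGTG on either strand.
Ezh1: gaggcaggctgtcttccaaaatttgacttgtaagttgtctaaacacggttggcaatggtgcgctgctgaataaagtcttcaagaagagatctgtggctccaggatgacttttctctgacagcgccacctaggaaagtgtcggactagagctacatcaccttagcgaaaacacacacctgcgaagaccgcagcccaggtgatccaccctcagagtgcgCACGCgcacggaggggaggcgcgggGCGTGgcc
Ezh2: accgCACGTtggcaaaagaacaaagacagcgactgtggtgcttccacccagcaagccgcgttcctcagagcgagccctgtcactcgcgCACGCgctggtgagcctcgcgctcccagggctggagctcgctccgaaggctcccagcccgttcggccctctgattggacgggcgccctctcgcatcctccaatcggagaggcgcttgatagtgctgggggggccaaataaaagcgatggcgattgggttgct
Each stretch holds 2 such matches, and they hold 14 (Ezh1) and 23 (Ezh2) CpG sites.

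Ezh2, the more active of the 2 subunits and typical of dividing cells, stood at 44.9, 59.3 and 54.4 CPM in naive cells, at 87.3, 109 and 94.1 CPM in effector cells, at 263, 263 and 248 CPM at day 4 and at 218, 202 and 247 CPM at day 14. Naive libraries were the lowest, effector libraries came next and tumour libraries were the highest, with no overlap between these levels. Ezh2 rose by 0.87 ± 0.11 in effector cells (adjusted p = 3.97e-05) and by 2.29 ± 0.12 at day 4 (adjusted p = 1.01e-10), both against naive cells. Ezh1, found mostly in resting cells, stood at 131, 112 and 117 CPM in naive cells, at 187, 193 and 186 CPM in effector cells, at 36.7, 52 and 47.4 CPM at day 4 and at 64.2, 60.6 and 55.6 CPM at day 14. Effector libraries were the highest and 4-day libraries the lowest, and no pair of groups overlapped. It rose by 0.65 ± 0.11 in effector cells (adjusted p = 0.000474), fell by 1.40 at day 4 against naive (SE 0.12, adjusted p = 2.64e-08) and rose again by 0.41 ± 0.11 at day 14 (adjusted p = 0.0276). That last call was lost without day 4 replicate 1, where the log2 fold change was 0.27, and without day 4 replicate 3 or day 14 replicate 1 or 2 (0.43, 0.34 and 0.38). The log2 ratio of Ezh2 to Ezh1 per kb was -1.04 ± 0.32 (SD, n = 3) in naive cells, -0.82 ± 0.14 in effector cells, 2.68 ± 0.28 at day 4 and 2.04 ± 0.23 at day 14.

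Of 10 other PRC2 subunits tested, 9 rose and 1 fell at day 4 against naive, with a median of 0.91. Phf19, which anchors PRC2 to chromatin, rose by 3.16 (adjusted p = 0.0003) and the accessory subunit Aebp2 by 1.37 (adjusted p = 2.13e-10). Phf1, a relative of Phf19, was the exception, with a log2 fold change of -2.44 (adjusted p = 5.14e-07). At day 14 against effector the counts were the same, 9 higher and 1 lower, with Phf1 at -1.51. Among all genes tested 32.6% were higher and 28.4% lower there. Of 18 subunits of PRC1, the other Polycomb complex, 3 rose and 7 fell at day 4, with Pcgf2 at 4.89 (adjusted p = 3.32e-08) and Cbx7 at -1.82 (adjusted p = 8.76e-09).

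Among the demethylases of H3K27, Kdm6b, which is induced by inflammatory signals, stood at 51.5, 54.2 and 53.2 CPM in naive cells, at 36.2, 28.2 and 48.7 CPM in effector cells, at 180, 150 and 168 CPM at day 4 and at 151, 156 and 224 CPM at day 14. All tumour libraries lay above all others. The rise was 1.65 ± 0.18 at day 4 against naive (adjusted p = 4.09e-06) and 2.23 ± 0.19 at day 14 against effector (adjusted p = 2.93e-07). In effector against naive cells Kdm6b had a log2 fold change of -0.49 and an adjusted p of 0.0691, and it was called lower under 9 alternatives, among them total-count scaling (-0.63). The X-linked Kdm6a lay between 223 and 293 CPM in all libraries and was called in none of the 4 pairwise comparisons with TMM scaling. The log2 ratio of Kdm6b to Kdm6a per kb was -1.97 ± 0.03 (SD, n = 3) in naive cells, -2.67 ± 0.35 in effector cells, -0.21 ± 0.09 at day 4 and -0.29 ± 0.28 at day 14.

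**Figure D4:**
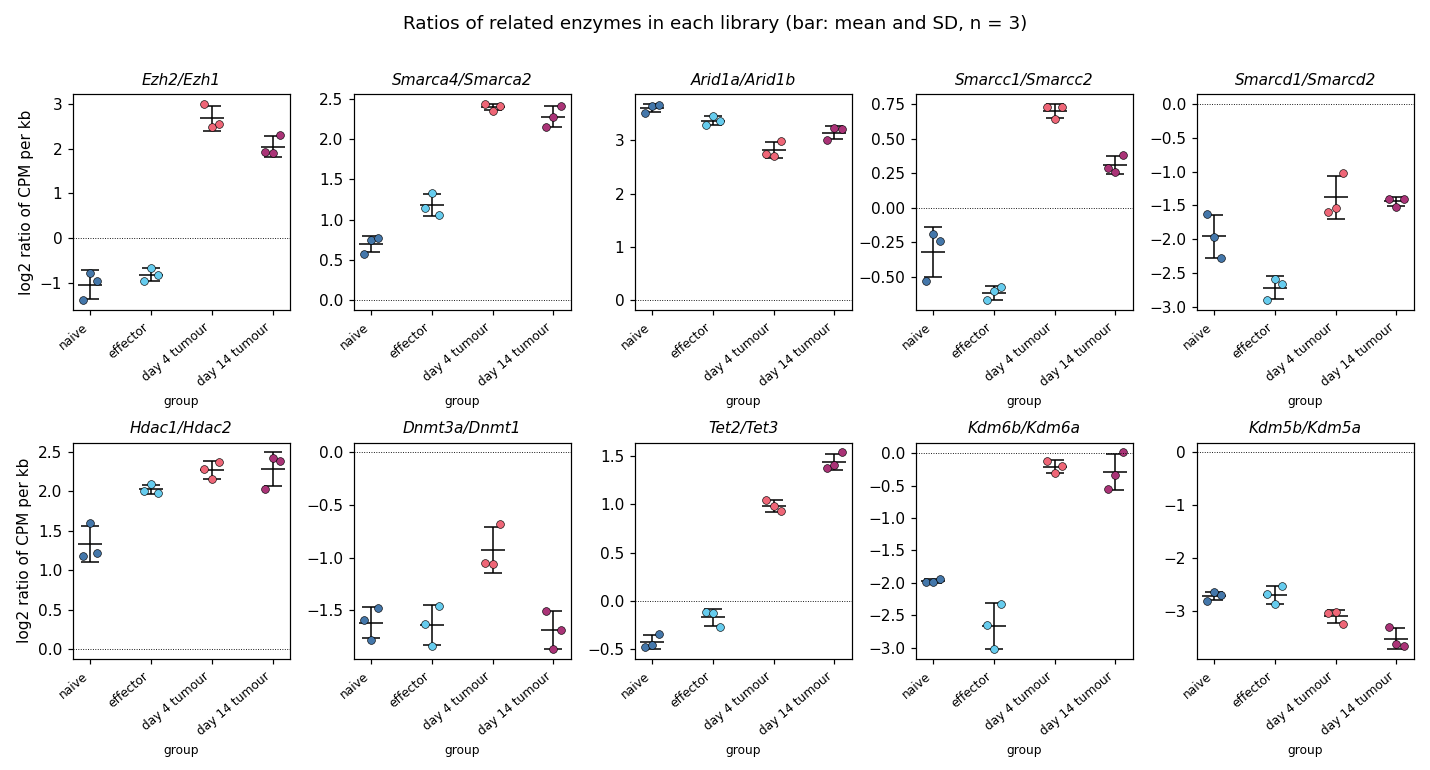
Log2 ratio of CPM per kb of exon (y axis) between 10 pairs of related members in each library (points), by group (x axis); bars are means and SD, n = 3, and the dotted line marks equal levels. Ezh2 lies below Ezh1 in all 6 naive and effector libraries and above it in all 6 tumour libraries, and Tet2 against Tet3 and Smarcc1 against Smarcc2 show the same change of order.

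The H3K4 methyltransferases held the most abundant members of the set. Kmt2a, the founding mammalian member of this family, stood at 1392, 1455 and 1598 CPM in naive cells, at 2364, 2607 and 2860 CPM in effector cells, at 888, 939 and 914 CPM at day 4 and at 1376, 1376 and 1293 CPM at day 14. Effector libraries were the highest, the 4-day libraries the lowest, and the 14-day libraries lay just under the naive ones. Its log2 fold changes were 0.82 ± 0.08 for effector against naive (adjusted p = 3.35e-06), -0.70 ± 0.08 for day 4 against naive (adjusted p = 1.90e-06) and 0.56 ± 0.08 for day 14 against day 4 (adjusted p = 0.000258). Kmt2c and Kmt2d, which methylate H3K4 at enhancers, fell further. Kmt2c stood at 1054, 1120 and 1272 CPM in naive cells, at 1344, 1283 and 1553 CPM in effector cells, at 323, 314 and 280 CPM at day 4 and at 410, 318 and 346 CPM at day 14. Its tumour libraries did not overlap the others, and it was 3.76-fold lower at day 4 than in naive cells (log2 -1.91 ± 0.11, adjusted p = 4.29e-10). Kmt2d ran from 1097 to 1420 CPM in naive and effector libraries and from 457 to 587 CPM in tumour libraries, with a log2 fold change of -1.40 ± 0.09 at day 4 (adjusted p = 2.61e-09). Setd7, which monomethylates H3K4 and some other proteins, stood at 266, 286 and 258 CPM in naive cells, at 422, 425 and 431 CPM in effector cells, at 91.2, 111 and 130 CPM at day 4 and at 104, 127 and 127 CPM at day 14. It rose by 0.66 ± 0.11 in culture (adjusted p = 0.000421) and at day 14 was lower than in effector cells by a log2 fold change of -1.83 ± 0.12 (adjusted p = 1.20e-09). Kmt2b, Kmt2e and Setd1b fell at day 4 as well, by 0.70, 0.38 and 0.65. Setd1a passed the test in no comparison. It shares 52.3% of its exon bases with other genes, and without strand its reads cannot be told apart from theirs.

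Of 12 tested partners of these enzymes in COMPASS complexes, 5 rose and 5 fell at day 4, with a median of -0.17. Dpy30, a core subunit, rose by 1.28 (adjusted p = 1.45e-06) and Paxip1 by 0.99 (adjusted p = 8.21e-08). The CpG-binding subunit Cxxc1 fell by 0.73 (adjusted p = 1.95e-05).

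The demethylases of H3K4 were lower in the tumour libraries in part. The KDM5 enzymes, which remove H3K4 trimethylation, fell at day 4 against naive cells, by 0.44 for Kdm5a, 0.82 for Kdm5b and 0.33 for Kdm5c. Kdm5b stood at 87, 89.8 and 81.4 CPM in naive cells, at 103, 90.9 and 118 CPM in effector cells, at 51.4, 53.3 and 41.9 CPM at day 4 and at 47, 34.6 and 33.1 CPM at day 14. Tumour libraries lay below all others, while the 4-day and 14-day libraries overlapped. Kdm1a, the lysine demethylase LSD1, was called in no comparison with TMM scaling and ran from 75.4 to 107 CPM over all libraries. Its relative Kdm1b stood at 36.4, 36.9 and 42.4 CPM in naive cells, at 47, 47 and 42.9 CPM in effector cells, at 78, 60.6 and 53.5 CPM at day 4 and at 34.3, 32.3 and 40.1 CPM at day 14. It was highest at day 4 and fell by 0.85 by day 14 (SE 0.14, adjusted p = 0.000547). Kdm1b shares 9.19% of its exon bases with Dek.

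Among the demethylases of H3K9 and H3K36 in the set, the largest rise was that of Kdm2b at day 4, a gene whose product binds CpG islands and recruits a variant of PRC1. Kdm2b stood at 23.1, 19.7 and 20.4 CPM in naive cells, at 36.2, 38.1 and 37.2 CPM in effector cells, at 186, 131 and 106 CPM at day 4 and at 119, 105 and 113 CPM at day 14. Tumour libraries lay above effector libraries, and effector libraries above naive ones. The log2 fold change was 0.82 ± 0.16 in culture (adjusted p = 0.00145) and 2.74 ± 0.16 at day 4 (adjusted p = 1.15e-09). Its relative Kdm2a went the other way, from 346 to 381 CPM in naive and effector libraries to 148 to 183 CPM in tumour libraries (log2 -1.11 ± 0.08 at day 4, adjusted p = 9.81e-09). Kdm4a, a demethylase of H3K9 and H3K36 trimethylation, peaked in effector cells. Kdm4a stood at 38.3, 40.1 and 39.6 CPM in naive cells, at 72.7, 77.8 and 77.9 CPM in effector cells, and at 36.7 to 51.9 CPM in the tumour libraries. It rose by 0.95 ± 0.10 in culture (adjusted p = 7.06e-06). Kdm4d had the highest fold change in culture but few counts, with 1.92, 0.956 and 0.536 CPM in naive cells and 2.95, 5.42 and 5.96 CPM in effector cells. The effector libraries lay above the naive ones, with a log2 fold change of 2.05 ± 0.43 (adjusted p = 0.00219). Kdm7a fell by 0.64 in culture and by 1.20 at day 4, and Kdm3b rose by 0.32 and fell by 0.59. Kdm4b and Kdm4c had log2 fold changes of -0.46 and -0.25 at day 4, and Kdm8, at 2.37 to 5.34 CPM, was called in no comparison.

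Of the H3K9 methyltransferases in the set, Setdb2 stood at 55.7, 62.8 and 63.6 CPM in naive cells, at 48.5, 45.9 and 43.2 CPM in effector cells, at 29.7, 26 and 28.7 CPM at day 4 and at 34.7, 33.7 and 39 CPM at day 14. No pair of groups overlapped, and it fell by 1.11 at day 4 against naive (SE 0.11, adjusted p = 2.57e-07). The fall in culture was -0.40 (adjusted p = 0.0123) and was not called without naive replicate 2 or 3 (-0.37 and -0.36). The rise from day 4 to day 14 was 0.35 (adjusted p = 0.0493), and it passed in 2 of the 19 alternatives. Setdb1, which silences endogenous retroviruses, lay between 91.2 and 132 CPM and differed only between day 14 and effector cells, by -0.28 (adjusted p = 0.0286). Among 10 other H3K9 methyltransferases and readers, 6 rose and 2 fell at day 4, with the heterochromatin protein gene Cbx5 at 1.61 (adjusted p = 3.31e-10), Atf7ip, a partner of SETDB1, at -1.26 (adjusted p = 1.59e-09) and the H3K9 trimethylase gene Suv39h1 at 1.20 (adjusted p = 1.33e-05).

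Among methyltransferases of H3K36, H4K20 and other substrates, the H4K20 enzymes divided. Kmt5a, which sets the first methyl group on H4K20 and is tied to the cell cycle, stood at 89.1, 99.2 and 105 CPM in naive cells, at 106, 138 and 126 CPM in effector cells, at 184, 169 and 197 CPM at day 4 and at 177, 191 and 212 CPM at day 14. Kmt5b, which adds the further methyl groups, ran from 206 to 264 CPM in naive and effector libraries and from 103 to 135 CPM in tumour libraries. At day 4 against naive, Kmt5a had a log2 fold change of 0.91 ± 0.11 (adjusted p = 2.19e-06) and Kmt5b of -1.13 ± 0.10 (adjusted p = 4.42e-08). Setd4 stood at 18, 20.5 and 17.8 CPM in naive cells, at 6.47, 6.45 and 8.74 CPM in effector cells, at 5.57, 5.71 and 7.48 CPM at day 4 and at 3.9, 4.23 and 4.9 CPM at day 14. Naive libraries lay above all others, and Setd4 fell by 1.38 in culture (SE 0.21, adjusted p = 0.000182). Setd2, the H3K36 trimethylase, lay between 232 and 346 CPM and fell by 0.26 at day 4 (adjusted p = 0.0143). Setd3, which methylates actin, and Setd5 rose in culture by 0.35 and 0.37 and were not called at day 4. In a list of 15 other lysine methyltransferases and related genes, 8 rose and 5 fell at day 4. The H3K36 dimethylase gene Nsd2 rose by 3.35 (adjusted p = 3.78e-12) while its relative Nsd3 fell by 1.11 (adjusted p = 7.71e-09), and Smyd1 and Prdm1 had log2 fold changes of 3.92 and 3.57. Mecom, also called, had at most 1.98 CPM in any library and counts near 0 in naive cells.

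Of the class I deacetylases, Hdac1 stood at 188, 203 and 206 CPM in naive cells, at 206, 215 and 198 CPM in effector cells, at 476, 434 and 444 CPM at day 4 and at 381, 384 and 410 CPM at day 14. Tumour libraries lay above all others, and the rise at day 4 was 1.18 ± 0.08 (adjusted p = 1.80e-09). Hdac2, which shares complexes with Hdac1, stood at 107, 87 and 115 CPM in naive cells, at 67.1, 65.6 and 65.1 CPM in effector cells, at 128, 127 and 112 CPM at day 4 and at 121, 93.1 and 102 CPM at day 14. It fell by 0.64 in culture (SE 0.12, adjusted p = 0.000703) and had a log2 fold change of 0.25 at day 4 (adjusted p = 0.0732), and was called higher there with DESeq2 size factors. The log2 ratio of Hdac1 to Hdac2 per kb was 1.33 ± 0.23 (SD, n = 3) in naive cells, 2.02 ± 0.06 in effector cells, 2.26 ± 0.11 at day 4 and 2.28 ± 0.22 at day 14. Hdac3, the catalytic subunit of the NCoR complexes, rose by 0.54 at day 4 (adjusted p = 0.00144), and Hdac8 rose by 0.52 in culture (adjusted p = 0.0321).

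The class IIa deacetylases Hdac4, Hdac5 and Hdac7, which act with transcription factors of the MEF2 family, fell at day 4 by 0.83, 0.56 and 0.66. Hdac7, which is prominent in thymocytes, ran from 325 to 426 CPM in naive and effector libraries and from 193 to 261 CPM in tumour libraries. Hdac6, a cytoplasmic enzyme that acts on tubulin, stood at 7.46, 7.81 and 6.97 CPM in naive cells, at 4.82, 4.3 and 3.33 CPM in effector cells, at 8.95, 13.5 and 9.35 CPM at day 4 and at 11.2, 12.6 and 12.3 CPM at day 14. It fell by 0.83 in culture (SE 0.23, adjusted p = 0.0146), a call lost without effector replicate 3 (-0.73), and was higher at day 14 than in effector cells by 1.53 ± 0.23 (adjusted p = 2.43e-05). Hdac10, a polyamine deacetylase, stood at 3.1, 7.17 and 8.04 CPM in naive cells, at 16.8, 25.7 and 20.1 CPM in effector cells, at 7.92, 8.17 and 6.15 CPM at day 4 and at 2.71, 3.94 and 4.72 CPM at day 14. Effector libraries lay above all others, with a log2 fold change of 1.77 ± 0.31 against naive cells (adjusted p = 0.000495) and of -2.45 ± 0.32 for day 14 against effector (adjusted p = 4.88e-06). Hdac9 had at most 1.68 CPM in any library and was called in no comparison. Of 22 corepressor partners, 7 rose and 9 fell at day 4. Sap30, a subunit of the SIN3 complex, rose by 2.33 (adjusted p = 9.94e-07), and the NuRD subunits Chd3 and Mta3 had log2 fold changes of -1.55 (adjusted p = 2.04e-08) and -1.29 (adjusted p = 3.09e-09). Of 12 histone acetyltransferases, the counterparts of the deacetylases, 3 rose and 7 fell at day 4, with Hat1 at 1.86 (adjusted p = 4.10e-10), Kat2b at -1.19 (adjusted p = 5.95e-07) and Kat6a at -1.01 (adjusted p = 3.71e-08).

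Sirtuins use NAD to remove acyl groups. The mitochondrial Sirt3 stood at 13.8, 8.84 and 11.2 CPM in naive cells, at 21.8, 20 and 21.4 CPM in effector cells, at 5.13, 5.95 and 6.75 CPM at day 4 and at 7, 8.64 and 6.3 CPM at day 14. Effector libraries were the highest and tumour libraries the lowest. It rose by 0.90 ± 0.20 in culture (adjusted p = 0.00363) and fell by 0.92 at day 4 against naive (SE 0.21, adjusted p = 0.00109). Sirt3 shares 12.7% of its exon bases with Psmd13 and Ric8a. The desuccinylase Sirt5 stood at 16.7, 12.8 and 12.2 CPM in naive cells, at 9.85, 7.74 and 12.8 CPM in effector cells, at 4.18, 4.81 and 5.34 CPM at day 4 and at 2.97, 4.06 and 2.36 CPM at day 14, with a log2 fold change of -1.54 ± 0.26 at day 4 (adjusted p = 7.78e-05). Sirt7, a nucleolar enzyme, ran from 118 to 139 CPM in naive and effector libraries and from 58.9 to 73.6 CPM in tumour libraries (adjusted p = 1.61e-07 for day 4 against naive). Sirt4 and Sirt6 fell at day 4 by 0.74 and 0.54. The cytoplasmic Sirt2 was the exception, with 42.6, 58.2 and 52.1 CPM in naive cells, 82.2, 99.8 and 71.2 CPM in effector cells, 78.8, 79.1 and 79.3 CPM at day 4 and 105, 105 and 104 CPM at day 14. Naive libraries were the lowest and 14-day libraries the highest. Sirt2 rose by 0.73 ± 0.12 in culture (adjusted p = 0.000436) and by 0.40 ± 0.12 from day 4 to day 14 (adjusted p = 0.0391), and the later rise was not called without any 1 of the 6 tumour libraries (0.39 to 0.40). Sirt1 was called in none of the 4 pairwise comparisons, with 32.5 to 48.3 CPM.

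The ATPases of BAF, of which a complex holds 1, moved in opposite directions in the tumour libraries. Smarca2 stood at 332, 335 and 323 CPM in naive cells, at 268, 260 and 237 CPM in effector cells, at 126, 135 and 124 CPM at day 4 and at 155, 156 and 140 CPM at day 14. Naive libraries were the highest and 4-day libraries the lowest, with no overlap between any pair of groups. Smarca4 stood at 224, 256 and 250 CPM in naive cells, at 271, 296 and 224 CPM in effector cells, at 307, 312 and 298 CPM at day 4 and at 312, 340 and 337 CPM at day 14. At day 4 against naive the log2 fold change was -1.36 ± 0.08 for Smarca2 (adjusted p = 6.38e-10) and 0.33 ± 0.10 for Smarca4 (adjusted p = 0.00717). The log2 ratio of Smarca4 to Smarca2 per kb was 0.70 ± 0.11 (SD, n = 3) in naive cells, 1.18 ± 0.14 in effector cells, 2.39 ± 0.04 at day 4 and 2.27 ± 0.13 at day 14. Among scaffold subunits, Smarcc1 stood at 212, 282 and 268 CPM in naive cells, at 261, 271 and 265 CPM in effector cells, at 518, 529 and 535 CPM at day 4 and at 457, 488 and 486 CPM at day 14, and rose by 1.05 ± 0.09 at day 4 (adjusted p = 6.39e-08). Smarcc2 lay between 217 and 294 CPM and was not called at day 4. The core subunit Smarcb1 stood at 38.6, 43.7 and 40.9 CPM in naive cells, at 26.7, 27.2 and 26.6 CPM in effector cells, at 62.5, 60.4 and 58.2 CPM at day 4 and at 53.4, 51.9 and 53.8 CPM at day 14. Its effector libraries were the lowest and its tumour libraries the highest, and it fell by 0.61 in culture (SE 0.10, adjusted p = 0.000258) and rose by 0.56 ± 0.10 at day 4 (adjusted p = 0.0001).

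Arid1a, the large targeting subunit of canonical BAF, stood at 534, 587 and 614 CPM in naive cells, at 505, 517 and 518 CPM in effector cells, at 331, 332 and 318 CPM at day 4 and at 375, 404 and 404 CPM at day 14. Tumour libraries lay below all others, and the log2 fold change at day 4 was -0.82 ± 0.08 (adjusted p = 1.00e-07). From day 4 to day 14 it rose by 0.27 ± 0.08 (adjusted p = 0.0255), and this call was lost without day 4 replicate 1, 2 or 3 or day 14 replicate 2 or 3 (0.24 to 0.28). Its alternative Arid1b lay between 44.1 and 56.9 CPM and Arid2, of PBAF, between 146 and 189 CPM, and neither was called at day 4. Smarcd2 peaked in effector cells, at 75.1, 80.9 and 78.4 CPM against 41 to 54.3 CPM elsewhere. Smarcd3 had at most 1.46 CPM and shares 48.2% of its exon bases with other genes, Chpf2 among them. Of 14 tested further subunits of BAF and PBAF, 3 rose and 5 fell at day 4, with Bcl7c at 1.99 (adjusted p = 6.71e-05), Bcl11b, a transcription factor of T cell identity, at -1.69 (adjusted p = 1.15e-09) and Bcl7a at -1.31 (adjusted p = 2.92e-05).

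Smarca5, the ATPase of ISWI remodellers that space nucleosomes, stood at 173, 167 and 153 CPM in naive cells, at 185, 166 and 191 CPM in effector cells, at 504, 478 and 461 CPM at day 4 and at 485, 447 and 477 CPM at day 14. Tumour libraries lay above all others, with a rise of 1.55 ± 0.08 at day 4 (adjusted p = 2.10e-10) and no call between day 14 and day 4 (-0.03, adjusted p = 0.876). Annotated pseudogene copies exist for Smarca5, Dnmt3a, Dnmt3l and Smarce1, so reads of these genes that match a copy equally well were not counted. The other remodellers Smarcad1 and Smarcal1, which act in DNA repair, lay between 46.2 and 59.4 CPM and between 22.5 and 30.7 CPM and were called in no comparison.

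Of the ARID proteins outside BAF, Arid3b, which binds AT-rich DNA, had the lowest fold change of the set at day 4. It stood at 140, 137 and 149 CPM in naive cells, at 114, 89.9 and 99.1 CPM in effector cells, at 9.46, 12.1 and 15.6 CPM at day 4 and at 18.5, 23.9 and 23.4 CPM at day 14. No pair of groups overlapped. The fold change was 11.4-fold down at day 4 against naive (log2 -3.51 ± 0.16, adjusted p = 4.85e-11), and the gene rose by 0.82 ± 0.16 from day 4 to day 14 (adjusted p = 0.00219). The fall in culture, -0.49 (adjusted p = 0.0196), was not called without naive replicate 1 or 3 or effector replicate 2 (-0.50, -0.45 and -0.41). Arid5a, which stabilises cytokine transcripts, stood at 53.7, 80.8 and 71 CPM in naive cells, at 98.4, 138 and 110 CPM in effector cells, at 36.7, 28.2 and 43.6 CPM at day 4 and at 76.5, 82.8 and 73.9 CPM at day 14. Its 4-day libraries were the lowest, and the 14-day ones overlapped the naive ones, after a rise of 1.11 ± 0.17 from day 4 (adjusted p = 0.000741). Arid5b, a partner of a histone demethylase, stood at 82.9, 95.1 and 82.1 CPM in naive cells, at 97.3, 98.6 and 86.1 CPM in effector cells, at 114, 120 and 115 CPM at day 4 and at 217, 178 and 176 CPM at day 14. It was highest at day 14, by 0.71 ± 0.10 over day 4 (adjusted p = 0.000163). Arid4a and Arid4b, subunits of SIN3 complexes, fell at day 4 by 1.18 and 0.61. Arid3a rose by 1.37 at day 4 (adjusted p = 0.0195) with overlapping groups, since naive replicate 3 stood at 11.9 CPM and day 4 replicate 3 at 28.9 CPM, against 3.9 to 11.7 CPM in the other naive and 4-day libraries.

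Calls were also counted by transcript length, with no test between the length classes. Of 29 members with at least 10000 exon bases, 4 were higher and 20 lower than in naive cells, with a median log2 fold change of -0.65, and of 51 shorter members 16 were higher and 16 lower, with a median of 0.05. Over all genes tested the medians were 0.02 for the 1272 long genes (486 higher, 472 lower) and 0.03 for the 15132 shorter ones (5004 higher, 4249 lower). At day 14 against effector, 4 long members were higher and 22 lower (median -0.62), and 13 shorter ones were higher and 22 lower (median -0.24), against 490 higher and 448 lower of all long genes (median 0.04) and 4863 higher and 4214 lower of all shorter ones (median 0.06). Dnmt3a, Kdm2b, Tet2 and Arid5b are the 4 long members that were higher at day 4. Spearman's rho of fold change at day 4 with exon length was -0.28 across the 80 members and 0.06 across 16404 genes, as a description across genes, which are not independent replicates. The share of reads outside genes was 25.8% to 30.2% in naive libraries and 20.7% to 25.1% in the others.

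**Figure D5:**
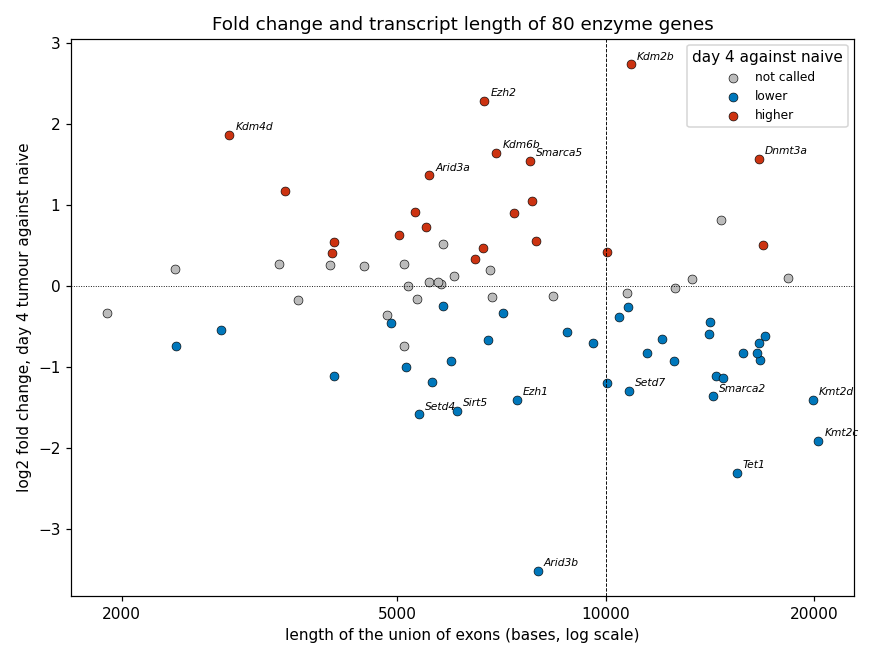
Log2 fold change at day 4 against naive (y axis) and length of the union of exons in bases (x axis, log scale) for the 80 tested members; colour shows the test's call and the dashed line marks 10000 bases. Right of the line 20 of 29 members are lower, and Kdm2b, Dnmt3a, Tet2 and Arid5b are the 4 that are higher.

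Promoter windows were searched for letters of the E2F type, TTCCCGC or TTGGCGC on either strand. E2F factors drive genes of replicating cells, and their part in these data was not tested. Such letters occurred in 9 of 93 windows of members (9.68%) and in 6.81% of all 32851 windows of the same length. They occurred in 5 of 24 windows of members that were higher at day 4 than in naive cells. Among members that were lower they occurred in 3 of 37 windows (Sirt4, Sirt6 and Arid1a). Among tested members that were not called they occurred in 1 of 25 windows (Kmt5c). The matches of the members that were higher are shown with 10 bases on either side, or up to the end of the window, written on the strand of the gene, with the matching letters in capitals.
Dnmt1: ggggcagcgtTTGGCGCgggctgtgc
Ezh2: gttgctgcgtTTGGCGCtcggtccggt
Kmt5a: gcgggcggccGCGCCAAtcagcacccg
Smarcb1: ttaagggcttGCGGGAAcgcgctcggc
Smarcd1: cagcacgcctTTCCCGCtagtcgcccc
Relative to the start site the matches are centred at position 38 in Dnmt1, 8 in Ezh2, -34 in Kmt5a, -48 in Smarcb1 and -127 in Smarcd1, and the printed stretches, flanking bases included, lie at chr9:20952574-20952599, chr6:47595010-47595036, chr5:124439883-124439909, chr10:75921649-75921675 and chr15:99702147-99702173. The hypoxia-type letters ACGTG or GCGTG were in 17 of 24 windows of the members higher at day 4 (70.8%) and in 15 of 37 of the lower ones (40.5%). They were in 13 of 25 windows of members not called (52%), in 52.7% of all members' windows and in 43.8% of all windows. The median GC content was 66.8% in windows of the higher members, 62.7% in those of the lower ones and 52.7% in all windows. Letters of the AP-1 type, TGANTCA, were in 6 of 93 windows of members (6.45%) and in 7.81% of all windows. The windows of higher, lower and not called members belong to 15, 28 and 22 genes. Some genes, Kdm2b among them, have several windows with matches, so the windows are not independent. Windows of 1 gene can overlap, and a match of letters is not a bound site. CpG-rich windows (at least 50% G and C and a CpG ratio of at least 0.6) made up 76.3% of the members' windows and 33.5% of all windows.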

How the data were processed

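RNA of 12 libraries was analysed from the gene counts that the authors deposited. Tools and build were fastp 0.19.6, STAR 2.6.1b and GRCm38, per the submitters' processing notes, while the annotation release and counting options were not stated in labels or headers. Per the labels' protocols, cDNA was amplified before library preparation. The unstranded counts were used, since 49.8% to 49.9% of stranded counts fell on the sense column, so overlapping and antisense genes cannot be told apart, and reads that matched several places were not counted. Of 55401 identifiers 55141 matched GENCODE M21, which gave symbols, exon lengths and positions. Reads outside genes (20.7% to 30.2% of a library), unmapped and ambiguous reads were left out of library sizes.

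Counts were filtered with filterByExpr (16426 genes left) and scaled with TMM in edgeR 4.0.16 (R 4.3.3). All 12 libraries entered 1 robust quasi-likelihood fit with 8 residual degrees of freedom, p-values were adjusted by Benjamini-Hochberg over all genes tested, and calls were made below 0.05. The fit was tested on simulated data. Ratios between genes use CPM per kb of exon and have no test. Alternatives were DESeq2 1.42.0, other scalings and filters, the 2 groups alone, a replicate block and leaving out each library. Full values are given for called members whose groups do not overlap, up to 8 per direction and comparison, and for a panel of 10 genes, and up to 3 called genes per partner list. Values beyond that rule, and Nsd2, Nsd3 and Suv39h1, were chosen after they were seen. The members and lists were chosen with earlier results of these data known.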

Additional observations from a re-analysis of the deposited data

How the results depend on the processing

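Among total counts of called members, that between day 14 and day 4 moved by over 1.5 times: it was 15, and it ranged from 8 to 14 when 1 library was left out, with 9 without any 1 of the day 4 libraries and 8 without day 14 replicate 2, and the cause was not tested. Counts by direction moved by over 1.5 times as well: members lower in effector than in naive cells were 10, but 17 with total counts as scaling and 16 with the filter of 10 CPM in 3 libraries, and members higher at day 14 than at day 4 were 11, but 6 with total counts or with the 2 groups alone and 5 to 7 without any 1 of the 6 tumour libraries, naive replicate 2 or 3 or effector replicate 1. Those lower at day 14 were 4, but 7 with that filter and 2 without day 4 replicate 2. Leaving out 1 library gave 28 to 35 members for effector against naive, 51 to 57 for day 4 against naive, 55 to 62 for day 14 against effector and 65 to 69 for any difference. With 2 libraries left in a group, that group's spread rests on the spread of the others. Correlations of same-numbered deviations from the group means ran from -0.0884 to 0.102, and 4 of 12 libraries correlated best with their own number. No pairing by replicate number was seen, but these values cannot exclude that same-numbered libraries share an animal or batch. With a replicate block the counts of called members were 36, 55, 15, 60 and 69, against 34, 56, 15, 61 and 70 without it, for effector against naive, day 4 against naive, day 14 against day 4, day 14 against effector and any difference. Of 1651 values of named members under the alternatives none changed direction, 49 lost their call and 27 gained one, and 63 of 72 called values were called under every alternative. At a few CPM, as for Kdm4d, Sirt4 and Hdac9, depth limits the precision. The SEs come from the fit, so they include the spread between these libraries. The effect of the cDNA amplification was not tested.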
